A study of Mus musculus with 31 samples.

Results

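The 6 genes followed here were among those nearest to a change in the livers of ChREBPβ-deficient mice without passing the test across all probes. They were Slc26a4, Dmd, Fam126a, Pipox, Tox and Chmp4b. They were selected on the measured difference between ChREBPβ-deficient mice and WT littermates relative to its error, so their values in that line are a description and carry no test. The array read 23968 gene names after the filter on dim spots. Of 23 probes for the 6 genes on the array, 12 met this filter, out of 36059 probes kept in all. Each gene had at least 1 probe kept, and all 12 probes were also in the deposited table of normalized values. Liver RNA came from 31 male C57BL6/J mice, with 1 array per mouse and no pooling. The ChREBPβ line gave 8 mice (ChREBPbeta_KO) that lacked ChREBPβ through a CRISPR/Cas9 deletion of exon 1b of Mlxipl in the germline, so the loss was not limited to hepatocytes, and 8 of their WT littermates (ChREBPbeta_WT). The total line gave 7 mice (ChREBPtotal_KO) that lacked both ChREBP isoforms in the whole body, and 8 of their WT littermates (ChREBPtotal_WT). All 31 mice, controls included, received regular chow, a fast of 24 hours and then 18 hours of refeeding with 20% glucose in the drinking water. The age of the mice was not given in the sources used here.

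ChREBP, encoded by Mlxipl, is a glucose-responsive transcription factor that pairs with MLX at carbohydrate response elements and drives glycolytic and lipogenic genes in liver. The long isoform ChREBPα is held inactive at low glucose, and the short isoform ChREBPβ starts at a separate promoter, lacks the low-glucose inhibitory domain and is itself induced by active ChREBP. Loss of the gene removes both isoforms, and loss of exon 1b removes ChREBPβ alone. The 6 genes have unrelated roles: an anion exchanger, a peroxisomal oxidase, a scaffold of phosphoinositide synthesis, a cytoskeletal linker, a nuclear DNA-binding protein and a subunit of a membrane-remodelling filament.

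Each probe is 60 bases long, and the values below are those of the probe that led its gene in the ChREBPβ line unless another is named. The Dmd probe is shown whole, and the others by their first 30 bases, all in lower case and 5′ to 3′. Both Chmp4b probes are shown because they gave different results. The letters are those of the deposited array annotation, which gives positions on mouse build mm9. Exons and UTRs were not assigned here.
Slc26a4 A_51_P224164, chr12:32204766-32204825, minus strand: aggaaggactaatcacagagattcctgact
Pipox A_51_P337195, chr11:77694273-77694332, minus strand: gacactgggtgaacttgcgattgctttgac
Fam126a A_55_P2795583, chr5:23467652-23467711, minus strand: tagtgtttcattgccctttcgattgtaaag
Dmd A_52_P306697, chrX:82389391-82389450, plus strand: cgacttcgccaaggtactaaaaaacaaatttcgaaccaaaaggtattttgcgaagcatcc
Tox A_52_P561073, chr4:6615449-6615508, minus strand: tgcgcactcaaagcagttcttcatttgatt
Chmp4b A_55_P2008538, chr2:154519942-154520001, plus strand: gggaggtgcctgctgtttataatgttgaat
Chmp4b A_52_P288873, chr2:154520353-154520412, plus strand: aagattgttagagttaattccagctatcca

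Mlxipl, the targeted gene, was lower in both lines on probe A_55_P2119957, by -0.45 on the log2 scale in ChREBPβ-deficient mice (limma adjusted p = 0.0152) and by -1.16 in mice without both isoforms (limma adjusted p = 8.05e-13). The first call was lost with slide as a fixed block (adjusted p = 0.3), with the replicate block (adjusted p = 0.0746) and when only the 2 groups of the line were fitted (adjusted p = 0.218). Probe A_55_P2728555 gave -0.46 (limma adjusted p = 0.909) and -0.59 (limma adjusted p = 0.00313), and A_55_P2045158 gave -0.06 and -0.05, not called in either line. The exons read by these probes were not assigned here. All 6 hepatocyte markers (Alb, Apoa1, Ttr, Cps1, Apob and Hnf4a) were measured. In total ChREBP-KO mice Cps1 was higher by 0.44 (SE 0.14, limma adjusted p = 0.0157) and Ttr by 0.17 (SE 0.05, limma adjusted p = 0.011), and Apoa1, Apob and Hnf4a were not called. Alb read 18.96 in every group. Quantile normalization gives the brightest probe the same value on every array, so Alb could not be called and says nothing about hepatocytes here. Spots that met the authors' conditions numbered 34131 to 38612 per array. On total ChREBP-KO replicate 6, skeletal muscle markers stood 5.14 above the median of the group on the summed log2 scale. Bile duct markers stood 2.46 above the group median on total ChREBP-KO replicate 5, and exocrine pancreas markers stood 1.14 to 2.55 above it on 3 arrays of the total line's WT littermates. No array of the ChREBPβ line stood more than 1 log2 unit above its group for these lists. In tissue RNA, fewer cells of a type and less RNA per cell cannot be told apart.

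Ranked by the moderated t statistic in the ChREBPβ line, Mlxipl came first, and the leading probes of the 6 genes took ranks 2 (Dmd), 3 (Slc26a4), 5 (Fam126a), 7 (Pipox), 10 (Chmp4b) and 11 (Tox). The places between them were held by features that are not among the 6 genes. At rank 6, Slc22a29, a member of the organic anion transporter family, was higher by 0.73 (SE 0.16) in ChREBPβ-deficient mice, and at rank 8 Gm10931 was higher by 0.29 (SE 0.07). Ranks 4 and 9 were held by an intergenic probe and a probe with no gene symbol. Just outside, at rank 12, Mnt, a MAX-binding repressor, was higher by 0.39 (SE 0.09), beside 0.35 (SE 0.08) for Tox at rank 11 just inside. In this line 1 of 36059 probes was called (0.00277%) and it was that of Mlxipl. At an unadjusted p under 0.05, 1796 probes (4.98%) passed. Counts of ChREBPβ-deficient mice beyond every WT littermate are given below as a description only. The share of all probes was computed for all 8 mice and not for 6 or 7 of them.

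The total ChREBP-KO line shares no array with the comparison that chose the genes, and there the 12 probes were tested. The spread was pooled over all 4 groups in a single fit, so the SEs here are not independent of the ranking that chose the genes. The choice was also made with earlier results of these data known. Of the 6 genes, 5 were called, in the same direction as the difference in the ChREBPβ line. There 6 probes were higher (Slc26a4, Pipox, Fam126a and all 3 Tox probes) and 4 were lower (all 4 Dmd probes), while neither Chmp4b probe was called. Among all probes 14.5% were called higher and 14.6% lower in this line (29.1% in all), so a call by itself was common. Of the features named above beside the 6 genes, Slc22a29 (1.11, limma adjusted p = 5.58e-06) and the intergenic probe (-0.60, limma adjusted p = 0.000297) were called, in the same direction as in the ChREBPβ line. Gm10931 (-0.11, limma adjusted p = 0.234), the probe with no gene symbol (-0.12, limma adjusted p = 0.379) and Mnt (0.22, limma adjusted p = 0.0952) were not called. All 7 total ChREBP-KO arrays lay above all 8 WT arrays for Slc26a4 and Pipox, and below them for each Dmd probe. For the Dmd probe A_55_P2719774 the groups nearly touched, at 6.18 for the highest knockout array and 6.19 for the lowest WT array. Over all probes, 3.26% showed the first pattern and 4.14% the second. The other called probes had 1 to 3 knockout arrays within the WT range. The share of all probes was not computed for such partial overlap, so these counts are a description only.

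**Figure D1:**
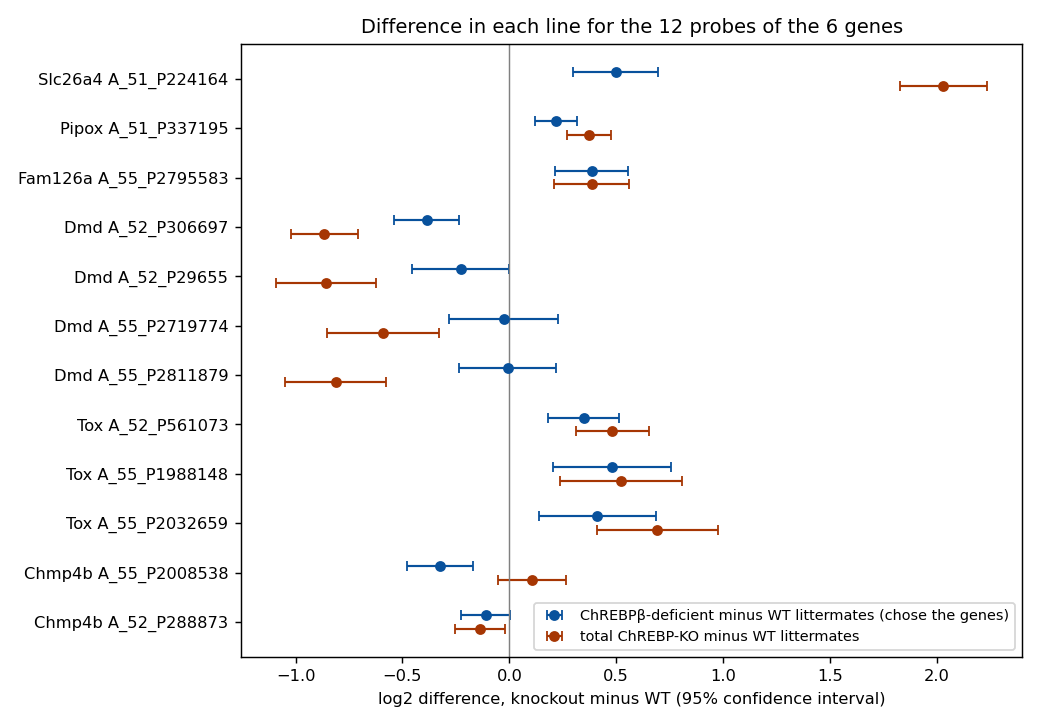
Log2 difference between knockout mice and WT littermates, with 95% confidence intervals from limma, for each of the 12 probes in the ChREBPβ line (blue, 8 against 8 arrays) and in the total ChREBP line (brown, 7 against 8 arrays). All probes except the leading Chmp4b probe have the same sign in both lines, Slc26a4 stands farthest from 0 at 2.03, and the leading Chmp4b probe lies below 0 in the first line and slightly above it in the second.

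Slc26a4 encodes pendrin, an exchanger of chloride for iodide and bicarbonate best known from the inner ear, thyroid and kidney. It was read by 1 probe. In total ChREBP-KO mice its log2 signal was 7.47 at the lowest, 7.70 at the median and 7.97 at the highest, and in their WT littermates 5.32, 5.72 and 5.92. The groups were far apart, with means of 7.72 ± 0.18 (SD, n = 7) and 5.69 ± 0.18 (SD, n = 8). The difference of 2.03 (SE 0.10, 95% confidence interval 1.83 to 2.23, limma adjusted p = 3.58e-15) was a 4.08-fold higher signal, the third smallest p of all probes in this line. In ChREBPβ-deficient mice the log2 signal ran from 6.75 over a median of 6.95 to 7.21, against 5.95, 6.54 and 6.84 in WT littermates. Of the 8 ChREBPβ-deficient mice, 7 lay above every WT littermate, at a mean difference of 0.50 (SE 0.10). The means rose in the order WT littermates of the total line, WT littermates of the ChREBPβ line, ChREBPβ-deficient mice, total ChREBP-KO mice, and each step exceeded the larger SD of its neighbours. The 2 groups of WT littermates thus differed by 0.77, more than the ChREBPβ-deficient mice differed from their own controls.

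The Slc26a4 spot was dim, with a raw median signal of 39 to 253 over a local background of 14 to 33, but well above background on all 31 arrays. Since the background was not subtracted, log2 differences of dim spots are compressed. With the background-subtracted processed signal the difference in total ChREBP-KO mice was 2.57, and with normexp and an offset of 50 it was 1.46. In the ChREBPβ line these values were 0.68 and 0.36, and within the arrays scanned on the first and on the second day they were 0.29 and 0.69.

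Pipox, peroxisomal sarcosine oxidase, oxidizes pipecolic acid from lysine breakdown and sarcosine in the peroxisome. In total ChREBP-KO mice the log2 signal was 14.42, 14.49 and 14.61 at the lowest, median and highest array, and in WT littermates 14.01, 14.15 and 14.22, with no overlap. The difference was 0.37 (SE 0.05, 95% confidence interval 0.27 to 0.48, limma adjusted p = 9.9e-07), a 1.30-fold higher signal. In ChREBPβ-deficient mice the log2 signal was 14.49, 14.59 and 14.69, against 14.14, 14.41 and 14.50 in WT littermates. The difference was 0.22 (SE 0.05), with 7 of 8 mice above every WT littermate. The mean of total ChREBP-KO mice was 0.09 below that of ChREBPβ-deficient mice, about their SD, and the WT littermates of the total line were 0.24 below those of the other line. Scaling to the 75th percentile in place of quantile normalization left a difference of 0.14 in the ChREBPβ line and 0.33 in the total line.

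Fam126a encodes hyccin, a scaffold of the complex that keeps the lipid kinase PI4KA at the plasma membrane. The 1 probe kept of 4 read 9.89, 10.19 and 10.41 at the lowest, median and highest array of total ChREBP-KO mice and 9.37, 9.85 and 9.99 in WT littermates. Of the 7 total ChREBP-KO mice, 6 lay above every WT littermate. The difference was 0.38 (SE 0.09, 95% confidence interval 0.21 to 0.56, limma adjusted p = 0.000965), and it was not called within the first scan day (0.34, limma adjusted p = 0.0841). In ChREBPβ-deficient mice the log2 signal was 10.55, 10.68 and 10.85, against 10.02, 10.33 and 10.45 in WT littermates. Here all 8 mice lay above all WT littermates, and the difference was also 0.38 (SE 0.08). Over all probes, 0.00832% had every ChREBPβ-deficient array above every WT array, and nothing is read from this since the comparison chose the gene. The WT littermates of the total line lay 0.52 below those of the ChREBPβ line, and total ChREBP-KO mice lay 0.13 below the latter, less than the SD. The other 3 Fam126a probes passed on 0 to 12 arrays and could not be used as a check.

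Dmd encodes dystrophin, which links the actin cytoskeleton to a membrane complex in muscle, and shorter products start at internal promoters in other tissues. The 4 probes kept all lay between chrX:82300717 and chrX:82449762, in the 3′ part of the gene. None of the other 6 probes passed on any array. Of these, 5 lay on the 5′ side of the kept probes, with raw medians of 12 to 48, and the last lay 3′ of them. On the RefSeq transcript NM_007868 the probes kept started at bases 10335 and 13165, while the probe at base 4942 was not detected.

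The leading Dmd probe read 6.44, 6.48 and 6.65 at the lowest, median and highest array of total ChREBP-KO mice and 7.20, 7.33 and 7.69 in WT littermates. Each knockout array lay below each WT array, and the difference was -0.87 (SE 0.08, 95% confidence interval -1.02 to -0.71, limma adjusted p = 5.84e-10), so that the WT signal was 1.82-fold that of the knockout. In ChREBPβ-deficient mice the log2 signal was 6.23, 6.42 and 6.73, against 6.57, 6.89 and 6.94 in WT littermates, a difference of -0.39 (SE 0.07) with 6 of 8 mice below every WT littermate. Over all probes, 0.0139% had all 8 below, a stricter pattern that this probe did not show. Both knockout groups ended at similar levels, 6.45 ± 0.16 (SD, n = 8) and 6.53 ± 0.10 (SD, n = 7), which were closer than their SDs. The larger difference in the total line went with a WT level that was 0.56 higher than in the other line. The probe was dim, with a raw signal of 75 to 216 over a local background of 15 to 33. Its spot met the authors' conditions on 25 of 31 arrays. Those that failed included WT replicates 1, 4, 5 and 8 of the total line. The difference was -0.65 with normexp and -0.97 with the processed signal in the total line, and -0.27 and -0.44 in the ChREBPβ line.

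The other Dmd probes followed the leading probe in the total line and only in part in the ChREBPβ line. In total ChREBP-KO mice the differences of A_52_P29655, A_55_P2719774 and A_55_P2811879 were -0.86 (SE 0.11), -0.59 (SE 0.13) and -0.81 (SE 0.12), with limma adjusted p of 9.82e-07, 0.000751 and 2.77e-06. In ChREBPβ-deficient mice they were -0.23 (SE 0.11), -0.03 (SE 0.12) and -0.01 (SE 0.11). Within the second scan day the difference of A_55_P2719774 in the total line was -0.39 and not called (limma adjusted p = 0.082). On A_55_P2811879, the Dmd probe with the strongest signal over background (raw 634.5 to 1702 over 14 to 33), the lowest, median and highest log2 signals were 9.56, 9.81 and 10.18 in ChREBPβ-deficient mice and 9.60, 9.73 and 10.09 in WT littermates, an almost complete overlap. Skeletal muscle markers (4 of 5 measured, Ckm below the filter) ranged in sum from 7.82 to 8.13 on the log2 scale in the other 3 groups, and had a median of 8.16 and a highest value of 13.3 in total ChREBP-KO mice. Without this array and the 4 others that stood apart, the leading Dmd probe gave -0.85 in the total line.

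**Figure D2:**
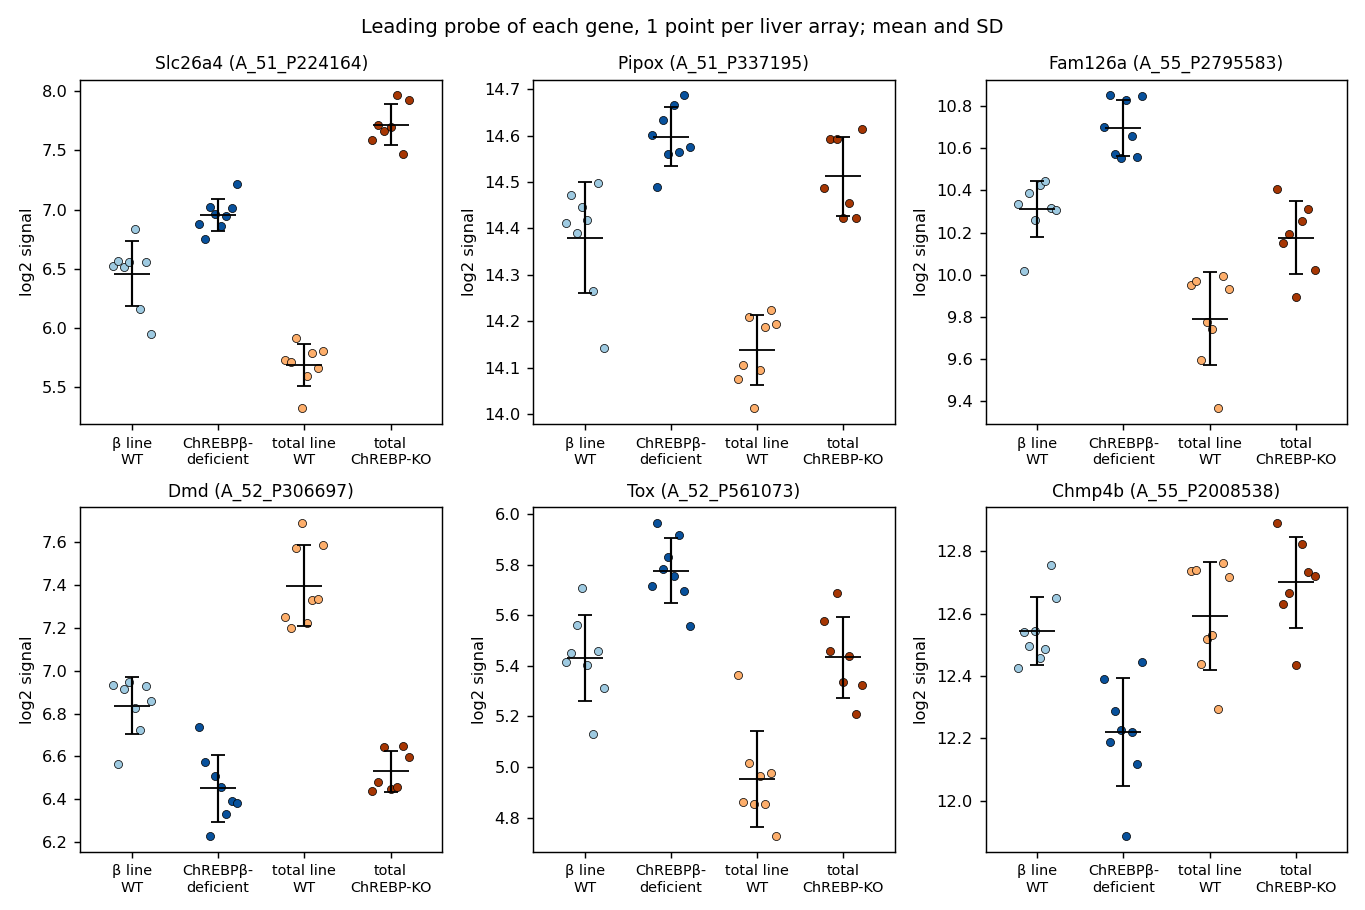
Log2 signal of the leading probe of each gene, with 1 point per liver array, the group mean and the SD, for 8, 8, 8 and 7 arrays from left to right in each panel; the scales differ between panels. The WT littermates of the total line (orange) lie below those of the ChREBPβ line (light blue) for Slc26a4, Pipox, Fam126a and Tox and above them for Dmd, and for Chmp4b the difference from WT is -0.32 in the first line and 0.11, not called, in the second.

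Tox encodes an HMG-box nuclear protein known from the development and exhaustion of T cells. Of 5 probes, 3 were kept, and they moved together in both lines. The leading probe read 5.21, 5.44 and 5.69 at the lowest, median and highest array of total ChREBP-KO mice and 4.73, 4.91 and 5.37 in WT littermates. Of the 7 knockout arrays, 4 lay above all WT arrays, and the difference was 0.48 (SE 0.08, 95% confidence interval 0.31 to 0.65, limma adjusted p = 5.17e-05). In ChREBPβ-deficient mice the log2 signal was 5.56, 5.77 and 5.96, against 5.13, 5.43 and 5.71 in WT littermates, a difference of 0.35 (SE 0.08).

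The other Tox probes, A_55_P1988148 and A_55_P2032659, gave 0.52 (SE 0.14, limma adjusted p = 0.00517) and 0.69 (SE 0.14, limma adjusted p = 0.000291) in the total line, with 6 of 7 knockout arrays above every WT array for both. In the ChREBPβ line they gave 0.48 (SE 0.14) and 0.41 (SE 0.13). Their larger SEs went with a wider spread among mice, up to an SD of 0.38. Within the second scan day these probes gave 0.30 and 0.39 in the total line and neither was called (limma adjusted p = 0.406 and 0.244). A_55_P1988148 was also not called without the 5 arrays that stood apart by their markers (0.43, limma adjusted p = 0.0887). For each Tox probe, total ChREBP-KO mice differed from the WT littermates of the ChREBPβ line by less than the SD. The WT littermates of the total line were -0.48, -0.78 and -0.79 apart from those of the ChREBPβ line. The leading probe had a raw signal of 25 to 77 over a background of 15 to 32, and its difference in the total line ranged from 0.23 with normexp to 1.10 with the processed signal. Of 6 T cell markers, 5 were measured. Cd5 was higher in total ChREBP-KO mice by 0.36 (SE 0.10, limma adjusted p = 0.00748), Cd3d, Cd3e, Cd3g and Cd4 were not called, and Cd8a did not meet the filter. In the ChREBPβ line none of the 5 was called. The summed log2 signal of the list lay between 13.8 and 14.6 over all arrays. Cd4, at a mean log2 signal of 13.98, made up most of this sum, with Cd3e next at 9.88, so the range does not describe the other markers. The part of T cells in the Tox values was not tested.

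Chmp4b is a subunit of ESCRT-III, which forms filaments that sever membrane necks in vesicle budding, cell division and repair. It was the gene for which the total line did not share the direction of the leading probe. In ChREBPβ-deficient mice that probe read 11.89, 12.22 and 12.45 at the lowest, median and highest array, against 12.43, 12.52 and 12.76 in WT littermates, a difference of -0.32 (SE 0.08) with 7 of 8 mice below every WT littermate. In total ChREBP-KO mice it read 12.44, 12.72 and 12.89 against 12.30, 12.63 and 12.76. These groups overlapped widely, and the difference of 0.11 (SE 0.08, limma adjusted p = 0.336) had a 95% confidence interval of -0.05 to 0.27.

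The second Chmp4b probe starts at base 1439 of the RefSeq transcript NM_029362, on which the leading probe starts at base 1028. It differed by -0.11 (SE 0.06) in the ChREBPβ line and by -0.14 (SE 0.06, 95% confidence interval -0.25 to -0.02, limma adjusted p = 0.0718) in the total line. Its log2 signal was 11.50, 11.58 and 11.82 in ChREBPβ-deficient mice against 11.61, 11.70 and 11.93 in WT littermates, and 11.61, 11.65 and 11.88 in total ChREBP-KO mice against 11.67, 11.90 and 11.96. The probes of the gene thus had opposite signs in total ChREBP-KO mice, and neither passed the test. The second probe passed when values were scaled to the 75th percentile (-0.17, limma adjusted p = 0.0337, or -0.15 and 0.0408 with the processed signal) and when 1 of 4 arrays was left out (WT replicates 2 or 6 or total ChREBP-KO replicates 4 or 6, -0.16 each, limma adjusted p = 0.0304 to 0.0394).

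**Figure D3:**
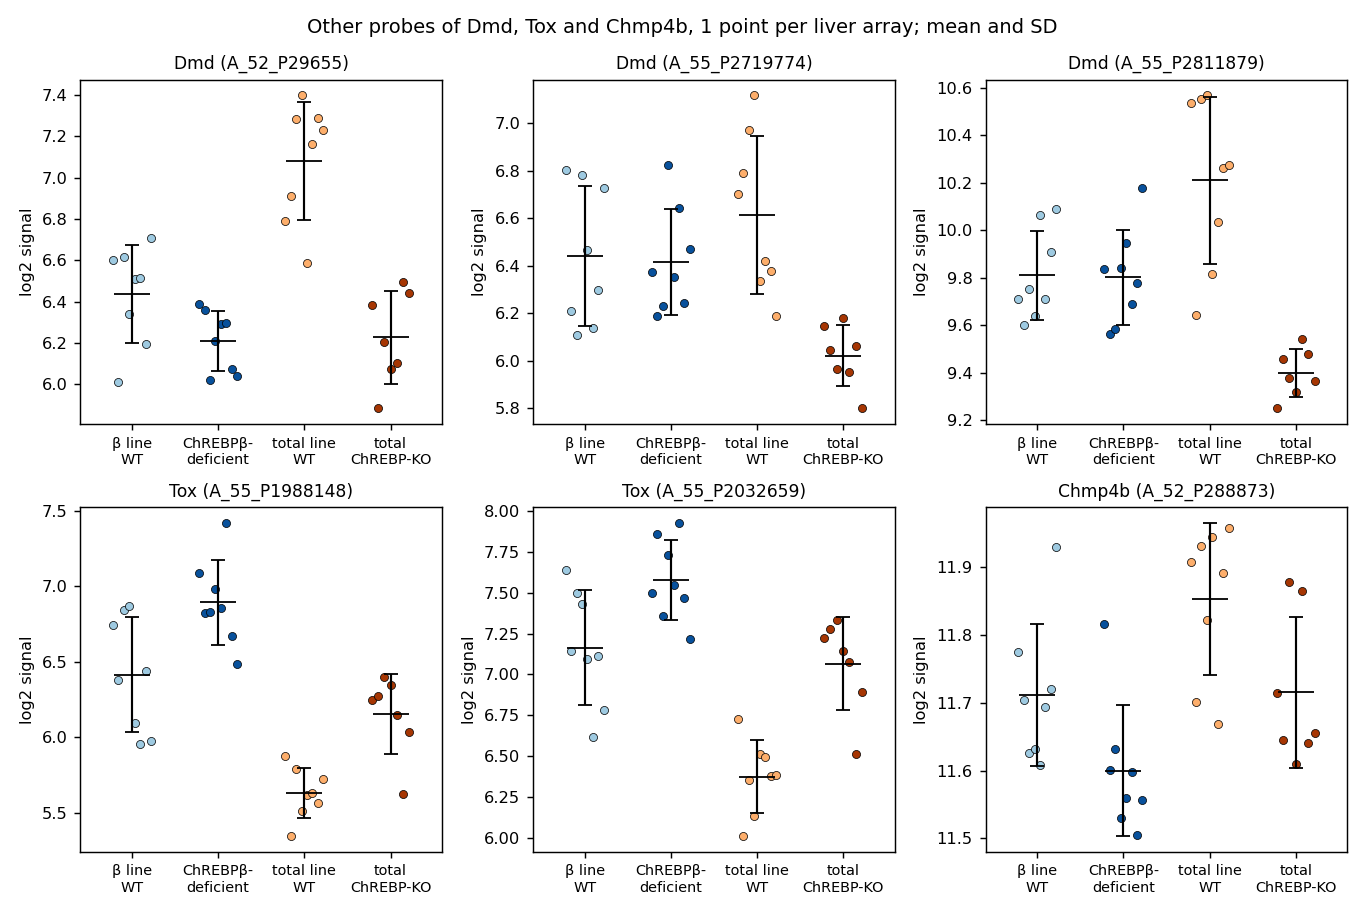
Log2 signal of the other 6 probes of Dmd, Tox and Chmp4b, with 1 point per liver array, the group mean and the SD; the scales differ between panels. The Dmd probes separate total ChREBP-KO mice from their WT littermates, though A_55_P2719774 only just (6.18 against 6.19). A_55_P2719774 and A_55_P2811879 show nearly equal means (differences of -0.03 and -0.01) in the ChREBPβ line. Both Tox probes are higher in both knockout groups.

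Compared with one another over the 31 arrays after group means were removed, probes of the same gene had positive correlations throughout, with Pearson's r of 0.68, 0.76 and 0.87 among the Tox probes, 0.20 to 0.65 among the Dmd probes and 0.39 for Chmp4b. These values describe probes on shared arrays and shared RNA and carry no test. Over the 56 pairs of probes of different genes, r ranged from -0.32 to 0.67 with a median of 0.01. The highest, 0.67 (Spearman's rho 0.56), joined Slc26a4 and Pipox, and the next, 0.52, joined Fam126a and the leading Chmp4b probe. The other genes had no r above 0.34 between them.

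**Figure D4:**
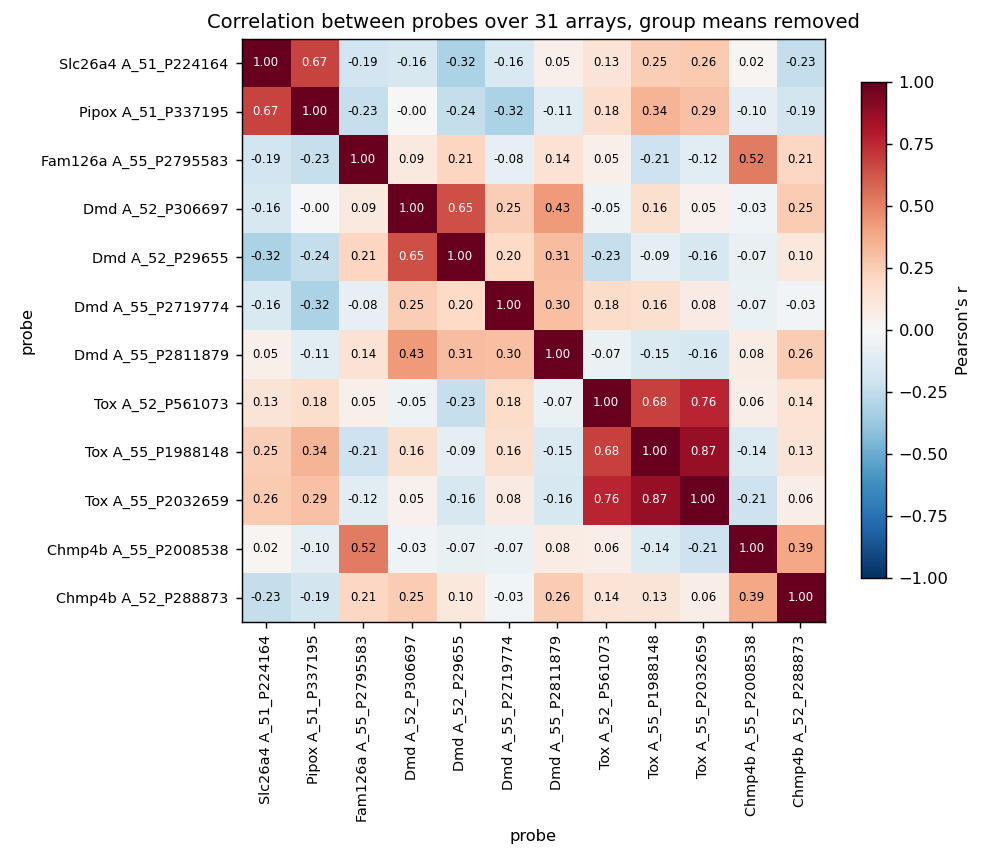
Pearson's r between each pair of the 12 probes over 31 arrays, with the mean of each group subtracted first; red is positive and blue negative. Tox forms a block of r from 0.68 to 0.87, Dmd a weaker one from 0.20 to 0.65, and the highest value between genes is 0.67 for Slc26a4 and Pipox.

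The probes whose mouse-to-mouse variation was most like that of each leading probe were taken from all probes kept, so high values were selected. For Chmp4b they were Tatdn2 (r = 0.81), Vapb (r = 0.77) and Dffa (r = -0.76). Tatdn2 was lower by -0.42 in ChREBPβ-deficient mice and higher by 0.36 in the total line (limma adjusted p = 0.0253), and Vapb differed by -0.34 and by 0.15 (limma adjusted p = 0.247). Neither was called in the ChREBPβ line. For Pipox they were Slc25a5 (r = 0.79), Mtss1l (r = 0.78) and Inmt (r = 0.75), an indolethylamine methyltransferase that was higher by 0.43 in the ChREBPβ line and by 0.96 in the total line. For Slc26a4 they were Imp4 (r = -0.77), Mvp (r = -0.76) and Cep55 (r = -0.74), and for Tox they included Nipbl (r = -0.84) and Ccdc51 (r = -0.77). For Fam126a they were 4930438E09Rik (r = -0.79), Galr3 (r = -0.77) and Synrg (r = 0.77). For Dmd they were Usp21 (r = -0.72), an intergenic probe (r = -0.72) and A530072M11Rik (r = 0.68). All 18 correlations, 3 for each gene, kept their sign within the 16 arrays of the ChREBPβ line and within the 15 arrays of the total line. Without the removal of group means 17 kept it, and r for Fam126a with Synrg went to -0.15. The pairs had been selected for high r on these same arrays. A kept sign was therefore largely fixed beforehand and is not a check in either line.

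Genes that work with the 6 were taken from 7 lists without the 6 genes themselves, with 1 probe per gene. Of 89 genes, 80 were measured. In total ChREBP-KO mice 18 were called higher and 12 lower, beside 14.4% of all genes higher and 14.8% lower, and in ChREBPβ-deficient mice none of the 80 was called, beside 0.00417% of all genes lower. The neighbours of Pipox held the largest group. Of 14 genes of lysine and sarcosine breakdown measured, 8 rose and 1 fell in total ChREBP-KO mice, with a median difference of 0.26 beside 0.01 over all genes. Dhtkd1 (0.53, SE 0.09), Aass (0.51, SE 0.13), Aadat (0.39, SE 0.10) and Aldh7a1 (0.37, SE 0.06), which act on lysine and its products, and Sardh (0.42, SE 0.08), the mitochondrial sarcosine dehydrogenase, were higher. Crym, which reduces the product of the other lysine branch upstream of Pipox and also binds thyroid hormone, fell by 1.48 (SE 0.17). In the ChREBPβ line the same list had a median difference of 0.10, with a range from -0.21 to 0.33. Of 14 genes measured in the list of peroxisomal oxidases and import, 5 rose, among them Hao2 (0.75, SE 0.15), a dim probe with a mean log2 signal of 4.70. In the same list 3 fell, among them Ddo (-1.34, SE 0.15), the oxidase of D-aspartate, and Uox (-0.37, SE 0.09), urate oxidase.

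The partners of dystrophin were called in both directions at shares near those of all genes (14.8% lower and 14.4% higher), and 14 of 20 did not pass. Of the 20 genes of the dystrophin-glycoprotein complex and its glycosylation enzymes measured, 4 fell, among them Pomt1 (-0.43, SE 0.06), Sgce (-0.39, SE 0.15) and Sgcb (-0.32, SE 0.10), while Lama2 (0.61, SE 0.17) and Large (0.39, SE 0.14) rose, and the median was 0.05. Among 7 genes of the complex that hyccin belongs to, only Ttc7b, another scaffold subunit, was called, at -0.76 (SE 0.09), opposite to Fam126a. Of 7 other anion exchangers of the SLC26 family, Slc26a1, a sulfate exchanger of hepatocytes, was lower by -0.41 (SE 0.11), and the others did not pass. Of the 3 relatives of Tox, Tox3 rose by 0.81 (SE 0.12) and the others did not pass. The Tox3 probe was dim, with a mean log2 signal of 4.82, so the size of its difference is uncertain. In the ESCRT-III list of 15 genes, Chmp7 (-0.72, SE 0.08) and Vta1 (-0.22, SE 0.05) fell and Chmp3 (0.32, SE 0.05) and Vps4a (0.16, SE 0.06) rose, shares again near those of all genes, with a median of 0.05.

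**Figure D5:**
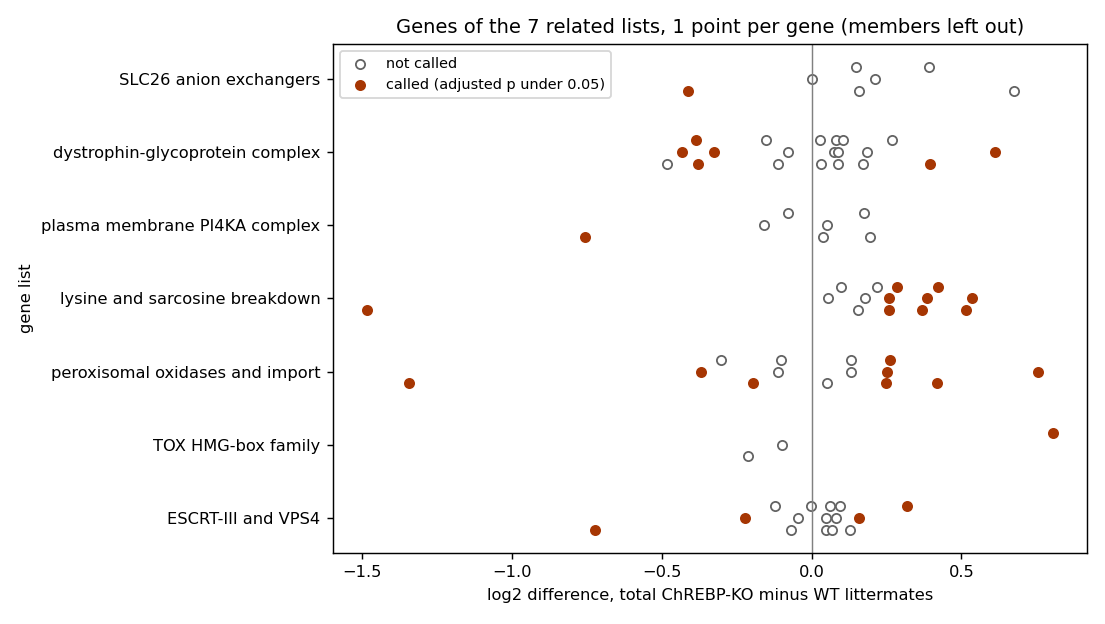
Log2 difference between total ChREBP-KO mice (n = 7) and WT littermates (n = 8) for the 80 measured genes of the 7 lists, 1 point per gene; filled points passed the test and the vertical offset within a list has no meaning. The list of lysine and sarcosine breakdown has 8 filled points to the right of 0 and 1, Crym, at -1.48, while the other lists hold few called genes or are split between the directions.

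The windows around RefSeq start sites, from 250 bases before to 50 bases after on GRCm38.p6, were searched for the E-box CACGTG, the core that is repeated in carbohydrate response elements and reads the same on both strands. There were 6 windows for 5 of the genes and none for Tox. The motif did not occur in any of the 6, and 7.15% of all 32851 windows held it. At that share an absence from so few windows is the likely outcome, so nothing is read from it. Other positions and other forms of the motif were not searched.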

How the data were processed

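Liver RNA of 31 mice was measured on one-color Agilent SurePrint G3 Mouse GE v2 arrays, and each array was assigned to its group by the sample labels. The files deposited by the authors are scanner files (Feature Extraction 10.10.1.1) with the raw intensity and the quality flags of every spot. A further file from the authors holds their normalized log2 values for 36057 probes, which correlated at r = 0.999995 with the values computed here. The median signal, not corrected for background, was put on the log2 scale. A probe was kept when its spot was found, positive and well above background on 26 or more arrays or on 6 or more arrays of any group. Quantile normalization followed, and replicated spots were replaced by their median. Tests used limma 3.58.1 in R 4.3.3 (data.table version 1.17.8), with all 4 groups in a single model and Benjamini-Hochberg adjustment over 36059 probes at a threshold of 0.05. The program was tested on simulated data. Figures were drawn with matplotlib 3.10.9.

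The 6 genes and all gene lists were chosen with earlier results of these data known. The ChREBPβ line chose the genes, so no p is given for them there, nor for the difference between the lines or between the groups of WT littermates. Named genes were the 6 genes, Mlxipl, up to 6 called genes of each list by size, the 3 genes most correlated with each leading probe, and neighbours in rank, and some of these are not reported here. Different probes of a gene were kept apart, except in the lists, where the probe with the highest mean stood for the gene. Replicate 3 of the total ChREBP-KO mice was not analysed here. The 7 or 8 arrays per group limit the precision. Alternatives covered the signal, scaling and filter, the authors' own values, blocks for slide, scan day and replicate number, values within each scan day, separate fits, the variance model, outlier spots, the exact Mann-Whitney test and the omission of each array.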

Additional observations from a re-analysis of the deposited data

Results flagged for a closer look

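Among the 48 combinations of probe and group, the highest or lowest array lay unusually far from the others in 3, by Dixon's test at the 95% level, and chance gives about 1 in 20 groups. For the second Chmp4b probe (A_52_P288873), ChREBPβ-deficient replicate 1 read 11.82, above the other 7 arrays of its group. For Fam126a, replicate 2 of the WT littermates of the ChREBPβ line read 10.02, below the other 7. For the leading Tox probe, replicate 1 of the WT littermates of the total line read 5.37, above the other 7 and within the range of the total ChREBP-KO mice.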

How the results depend on the processing

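No difference of the 12 probes in the total line changed its direction under any alternative run, and Slc26a4, Pipox, the leading Tox probe and, where kept, the Dmd probes A_52_P306697, A_52_P29655 and A_55_P2811879 passed the test under each. Leaving out each array in turn left 6 probes called higher and 4 to 5 called lower. A spot required to pass on all arrays left 5 probes called higher, since Slc26a4 then did not enter. It left 1 probe called lower, since 3 Dmd probes did not enter either. The size of the Slc26a4 difference ranged from 1.46 to 2.57. In the ChREBPβ line, leaving out each array gave 6 to 8 probes with a difference above 0, the 2 Dmd probes near 0 changing sign. Over all genes, 0 to 1 were called higher and 0 to 2 lower there when an array was left out. The processed signal gave 2 called lower, and 0 were called lower with slide as a fixed block, in a fit of the line alone, within scan day 1, within scan day 2, by the exact Mann-Whitney test (2241 probes at an unadjusted p under 0.05) and without the 5 arrays with muscle, pancreas or bile duct markers, an alternative chosen after seeing the data. The single call of Mlxipl was lost without ChREBPβ-deficient replicates 5 or 6 or WT replicates 6 or 7. In the total line, genes called numbered 4156 higher and 4087 lower, 3638 to 4189 and 3728 to 4141 when an array was left out, 2276 and 2438 within scan day 1 and 1746 and 2114 within scan day 2, where fewer arrays were fitted. Replicate numbers were shared between groups, and the labels do not say whether they pair mice, so the main fit left the mice unpaired. Deviations of mice with the same number correlated at -0.16 to 0.53 in the ChREBPβ line and -0.21 to 0.24 in the total line. Of these pairs, 6 of 8 and 2 of 7 were over 0.1, and 4 of 8 and 1 of 7 correlated best with their own number. These values cannot exclude a pairing in the ChREBPβ line. With the replicate block 0 genes were called lower in the ChREBPβ line, and the members' calls in the total line stayed at 6 higher and 4 lower.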
